A study of Mus musculus with 9 samples.

Results

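Collagens and laminins, the main structural proteins of the extracellular matrix, were followed in RNA-seq libraries of cultured mouse spermatogonial stem cells (SSCs). The genes were taken by symbol as every row of the count table named Col or Lam in the manner of a collagen or laminin chain, which gave 55 of the 53801 genes in the table. They comprised 11 fibrillar collagens, 8 basement membrane collagens, 11 laminins and 25 collagens of other classes (fibril-associated, beaded filament, network-forming, transmembrane and remaining ones). All 55 passed the filter on low counts and were tested. The cells carried floxed Prmt5 alleles (Prmt5 flox/flox) and Rosa26-CreERT2, an inducible recombinase expressed from a ubiquitous locus, and all of them had received 4-hydroxytamoxifen (4OHT) at 1 µM, which activates the recombinase. In 3 libraries the cells had 4OHT alone. In 3 they also carried PRMT5 (E444Q), a catalytically dead form of the arginine methyltransferase, and in 3 they carried PRMT5 (WT), the active enzyme. Both were delivered by lentivirus. The sample labels abbreviate the construct names, so "MU" is read here as PRMT5 (E444Q) and "OE" as PRMT5 (WT), and each statement on a construct depends on that reading. Below, E444Q and WT stand for the cells with PRMT5 (E444Q) and with PRMT5 (WT). All libraries share the floxed alleles and 4OHT, and cells given ethanol are not analysed here. The sources do not say that the 3 libraries of a group came from separate cultures, so p-values measure the spread between libraries, which may be technical.

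Fibrillar collagens are the load-bearing collagens of connective tissue, secreted as procollagens, trimmed by proteases and cross-linked into fibrils, and fibroblasts are their usual source. Type IV collagen forms the sheet-like network of basement membranes, to which laminins, each a trimer of an alpha, a beta and a gamma chain, add a second network that cells bind through integrins and dystroglycan. In the testis a laminin-rich basement membrane lies beneath the spermatogonia, and in culture SSCs are commonly kept on mouse embryonic fibroblast (MEF) feeders or on laminin. The screening and growth assays of the study used feeders, and whether feeder RNA entered these libraries is not given in the sources used here.

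Library totals ran from 78751996 to 365719548 counts, with the E444Q libraries the deepest. Levels are given as counts per 1000000 (CPM) after scaling of the library sizes. A count of 3 corresponds to between 0.0082 and 0.0381 CPM, a limit that covers counting error only. Among the 37 members described by library, the SD between replicates relative to their mean was 11.5% (median over members) for 4OHT alone. It was 2.46% for E444Q and 3.56% for WT. Prmt5 itself was higher with both constructs, with log2 fold changes of 2.27 for E444Q and 5.15 for WT against 4OHT alone (standard errors 0.051 and 0.058). It was lower with E444Q than with WT, with a log2 fold change of -2.88 (standard error 0.052), so the constructs differed in mRNA amount as well as in the mutation. All 15 germ cell markers examined, among them Ddx4 and Dazl, were detected in all 9 libraries, and 13 of 14 feeder fibroblast markers were too.

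Most collagen and laminin genes that differed were lower with the constructs than with 4OHT alone, and lowest with WT. Against 4OHT alone, WT had 32 members lower and 11 higher (edgeR, adjusted p under 0.05), or 58.2% and 20% of the members, where 27.9% of all 22452 genes tested were lower and 29.9% higher. E444Q had 30 members lower and 8 higher against 4OHT alone, or 54.5% and 14.5%, where 26.5% of all genes were lower and 29.5% higher. Both comparisons use the same 4OHT libraries, so their counts are given side by side and are not separate evidence. Between the constructs, 16 members were higher with E444Q than with WT, or 29.1%, and only Col6a3 was lower, where 2.12% of all genes were higher and 1.06% lower. The 16 became 10, 8 and 10 without the first, the second and the third E444Q library, and 9 without either the first or the third WT library. The median log2 fold change of the 55 members was -0.58 for E444Q and -0.82 for WT against 4OHT alone, and 0.19 between the constructs. The medians over all genes tested were 0.043, 0.018 and 0.0080. The means fell in the order 4OHT alone, E444Q, WT for 31 of the 55 members, or 56.4%, beside 27% of all genes tested.

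The differences between the constructs were small: the 16 members that were higher with E444Q were so by 1.23-fold to 1.97-fold, and 2 of them by at least 1.5-fold. The E444Q libraries lay entirely above those of WT for 28 members and entirely below for 3, so that 31 of 55 did not overlap, where 25.8% of all genes tested did not. The libraries did not overlap for 39 members between E444Q and 4OHT alone and for 41 between WT and 4OHT alone, where 63.9% and 61.6% of all genes tested did not.

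**Figure D1:**
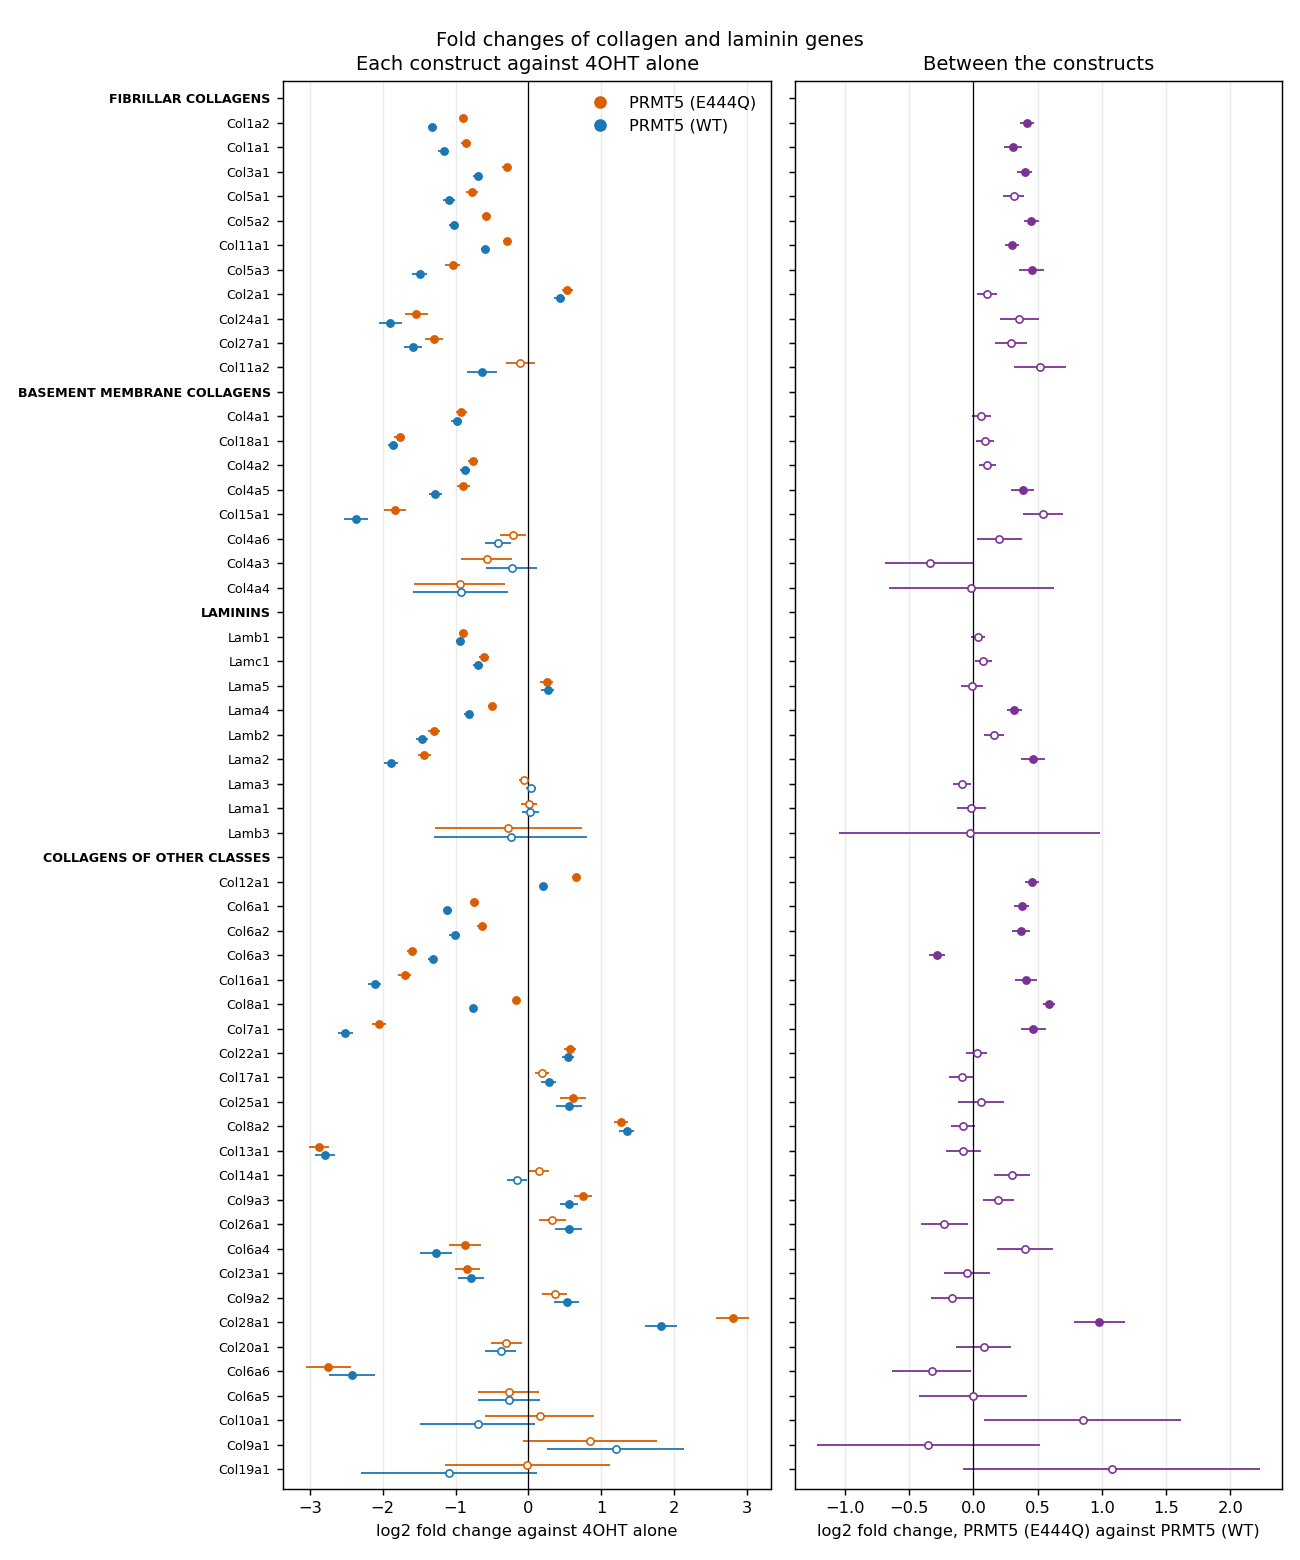
Log2 fold changes of 53 collagen and laminin genes (rows, by class and then by mean CPM), on the left for each construct against 4OHT alone and on the right for PRMT5 (E444Q) against PRMT5 (WT). Bars are the standard error from edgeR, filled points have an adjusted p under 0.05, and Lamc3 is left out because it was near 0 counts with PRMT5 (WT). Most points on the left lie below 0, with the blue PRMT5 (WT) points farther from 0 for the fibrillar collagens, and most filled points on the right lie above 0, with Col6a3 below.

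The sums of fibroblast and myoid markers moved with these genes, while those of macrophage and germ cell markers moved the other way. The summed level of 14 feeder fibroblast markers was 5008 to 5923 CPM with 4OHT alone, 1658 to 1678 CPM with E444Q and 1308 to 1335 CPM with WT. Of the 13 that could be tested, 12 were lower with each construct than with 4OHT alone, 9 were higher with E444Q than with WT, and Tcf21 was untested, with 0 counts in 5 libraries. That is 92.3% lower and 69.2% higher. Of all genes tested, 26.5% and 27.9% were lower and 29.5% and 29.9% higher with E444Q and WT than with 4OHT alone. Between the constructs 2.12% of all genes were higher with E444Q and 1.06% lower. Summed over the 55 members, the level was 9496 to 11566 CPM, 6383 to 6523 CPM and 5341 to 5429 CPM in the same order of groups. The 15 germ cell markers summed to 2594 to 2649.6 CPM, 3191 to 3289.9 CPM and 3432 to 3473 CPM, although 8 of them (53.3%) were lower and 6 (40%) higher with each construct than with 4OHT alone. Macrophage markers, 7 genes that include Lyz2 and Ptprc, rose from 168 to 181 CPM with 4OHT alone to 1068 to 1101 CPM with E444Q and 2109 to 2225 CPM with WT, each gene passing the test in all 3 comparisons. The 5 myoid and smooth muscle markers, of which 4 (80%) were lower with each construct, summed to 222 to 228 CPM, 65.8 to 71.3 CPM and 55.2 to 57.8 CPM. Sertoli cell markers (8 genes, with Fshr at 0 in all 9 libraries and Rhox8 at 0 in 5) summed to 25.9 to 30.1 CPM, 18.4 to 19.98 CPM and 15.6 to 19.8 CPM, and the 5 endothelial markers to 16.99 to 20.6 CPM, 17.2 to 17.7 CPM and 18.4 to 20.2 CPM. In bulk RNA, fewer cells of one type and less RNA per cell cannot be told apart, and the part of these markers' cells in the collagen and laminin levels was not tested.

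**Figure D2:**
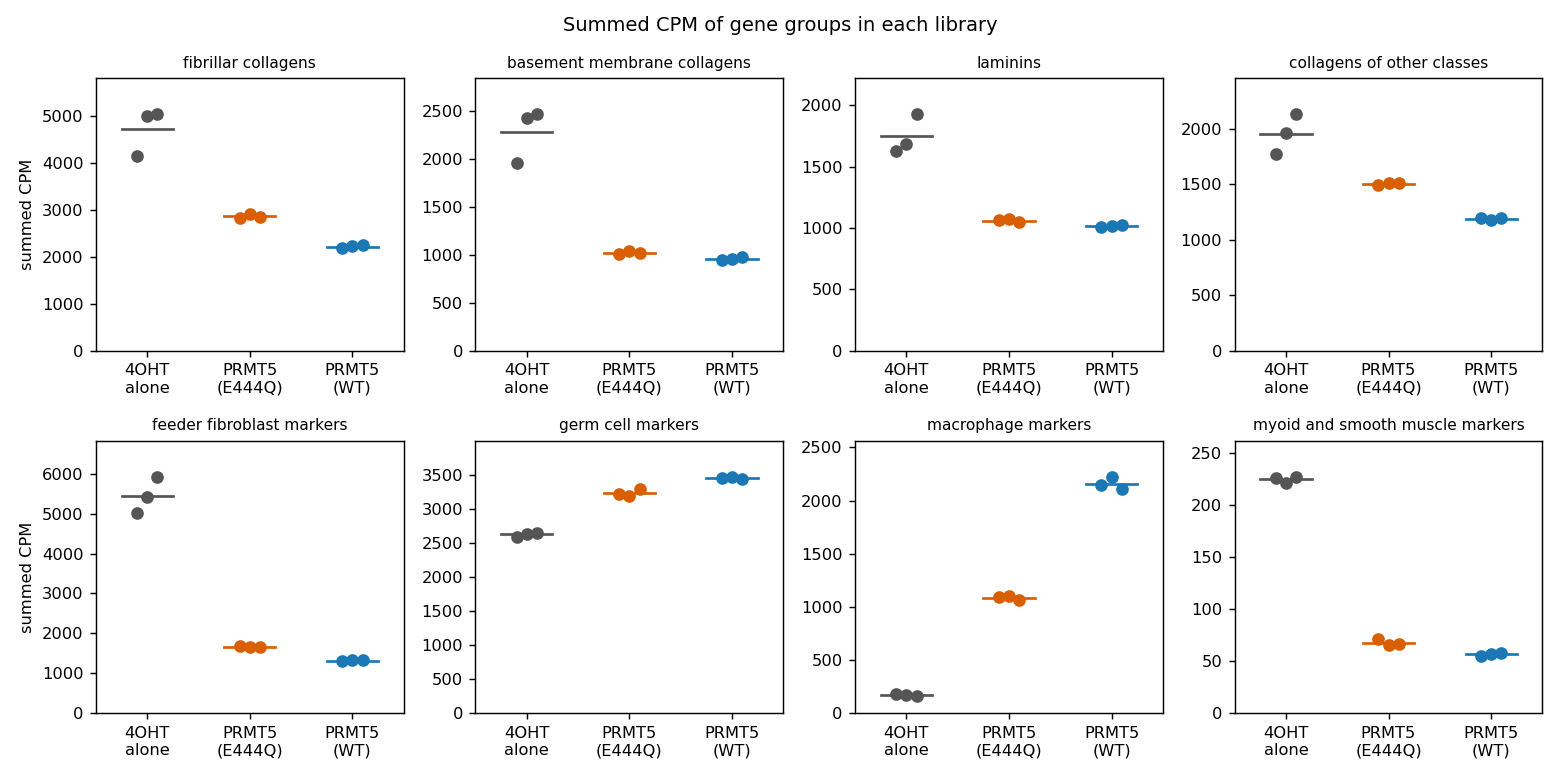
Summed CPM in each library (points; lines are means of 3 libraries) of the classes of collagen and laminin genes in the upper row and of the cell type markers in the lower row, with axes from 0. Collagens, laminins, fibroblast and myoid markers are highest with 4OHT alone, while germ cell and macrophage markers are lowest there.

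Fibrillar collagens were lower with both constructs for nearly all chains and partly higher again with E444Q than with WT. Of the 11 chains, 9 were lower and 1 higher with E444Q than with 4OHT alone, 10 were lower and 1 higher with WT, and 6 were higher with E444Q than with WT. Against 4OHT alone 81.8% and 90.9% were lower and 9.09% higher with each construct. Of all genes, 26.5% and 27.9% were lower and 29.5% and 29.9% higher. Between the constructs 54.5% of the chains were higher, beside 2.12% of all genes. The median log2 fold changes of the chains were -0.77, -1.09 and 0.36 in those comparisons, beside 0.043, 0.018 and 0.0080 for all genes tested. The chains of type I collagen, the most abundant collagen of connective tissue, led the class. Col1a1 was measured at 1153, 1434 and 1435 CPM with 4OHT alone, 737, 746 and 742 with E444Q and 585, 589 and 621 with WT. Col1a2, which joins Col1a1 in the type I trimer, was measured at 1312, 1507 and 1556 CPM with 4OHT alone, 766, 797 and 780.2 with E444Q and 572, 591 and 591 with WT. For both chains the 3 groups lay apart without overlap, highest with 4OHT alone and lowest with WT, and the first 4OHT library was the lowest of its group. Col1a1 was 1.81-fold lower with E444Q than with 4OHT alone (adjusted p = 1.61e-07) and 2.24-fold lower with WT (adjusted p = 6.53e-09), and it was 1.24-fold higher with E444Q than with WT (adjusted p = 0.0278). Col1a2 was 1.87-fold lower with E444Q than with 4OHT alone (adjusted p = 1.2e-08) and 2.49-fold lower with WT (adjusted p = 2.33e-10), and its difference between the constructs was 1.33-fold (log2 0.42, standard error 0.057, adjusted p = 0.000773). The call for Col1a1 between the constructs was lost when any one library of either construct was left out (adjusted p up to 0.136), while that for Col1a2 was kept under all 17 alternative analyses.

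Col3a1, the type III chain of reticular fibres, fell less against 4OHT alone than the type I chains, with 656, 774 and 767 CPM with 4OHT alone, 587, 609 and 589 with E444Q and 451, 457 and 447 with WT. It was 1.23-fold lower with E444Q than with 4OHT alone (adjusted p = 0.00052) and 1.62-fold lower with WT (adjusted p = 1.62e-07), and 1.32-fold higher with E444Q than with WT (adjusted p = 0.00129). Its groups also stood apart in all 9 libraries. The type V chains regulate fibril diameter. Col5a1 was at 541, 709 and 723 CPM with 4OHT alone, 378, 389.8 and 386 with E444Q and 309.7, 309 and 310.1 with WT. Col5a2, which lies beside Col3a1 on chromosome 1 with 24.6 kb between them, was at 323, 373 and 378 CPM with 4OHT alone, 237, 245 and 238 with E444Q and 176, 173 and 178 with WT. Both were highest in all 4OHT libraries, and Col5a1 was 1.71-fold and 2.12-fold lower with E444Q and WT. Col5a2 was lower by 1.49-fold and 2.04-fold. Between the constructs Col5a2 was 1.37-fold higher with E444Q (adjusted p = 0.000409), while the difference of Col5a1 (log2 0.31, standard error 0.083) did not pass (adjusted p = 0.0643), although its E444Q libraries all lay above. It passed under 8 alternative analyses. Among these were DESeq2 (adjusted p = 0.0103) and edgeR with only the 6 libraries compared (adjusted p = 5.67e-06). Under others the adjusted p by edgeR reached 0.212. Col5a3, the less common type V chain, was at 60.7, 78.2 and 72.9 CPM with 4OHT alone, 32.6, 35.7 and 34.6 with E444Q and 21.7, 27.96 and 25.4 with WT. It was 1.37-fold higher with E444Q than with WT (adjusted p = 0.021). Against 4OHT alone it was 2.06-fold lower with E444Q and 2.82-fold lower with WT, but its call between the constructs was lost without the second or the third E444Q library or the first or the third WT library.

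Of the type XI chains, which nucleate cartilage fibrils, Col11a1 was at 60.5, 67.6 and 66.3 CPM with 4OHT alone, 53.6, 52.7 and 52.1 with E444Q and 44.5, 43.2 and 41.04 with WT. It was 1.23-fold lower with E444Q, 1.51-fold lower with WT and 1.23-fold higher with E444Q than with WT (adjusted p = 0.00825, lost without the first E444Q or the third WT library). Col11a2 was at 2.86, 4.7 and 3.41 CPM with 4OHT alone, 3.19, 3.66 and 3.29 with E444Q and 2.74, 2.58 and 1.79 with WT. Only the fall with WT passed the test (1.55-fold, adjusted p = 0.017), a call lost without the second 4OHT library or the third WT library. Its 4OHT and E444Q libraries overlapped. The low-level fibrillar chains Col24a1 and Col27a1 had the largest folds of the class. Col24a1 was at 9.53, 11.5 and 11.98 CPM with 4OHT alone, 4.07, 4.13 and 3.16 with E444Q and 3.47, 2.95 and 2.49 with WT. It was 2.9-fold and 3.72-fold lower with E444Q and WT. Col27a1 was at 8.75, 10.96 and 10.5 CPM with 4OHT alone, 4.06, 3.7 and 4.55 with E444Q and 3.31, 3.33 and 3.39 with WT. It was 2.45-fold and 3.01-fold lower. Neither passed between the constructs (adjusted p = 0.341 and 0.33). Col2a1, the chain of cartilage type II collagen, went the other way, with 12.8, 14.2 and 13.3 CPM with 4OHT alone, 20.01, 19.99 and 18.4 with E444Q and 16.5, 18.9 and 18.8 with WT. All 6 construct libraries lay above the 4OHT libraries, by 1.45-fold with E444Q (adjusted p = 5.21e-05) and 1.34-fold with WT (adjusted p = 0.000388), and the constructs overlapped.

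**Figure D3:**
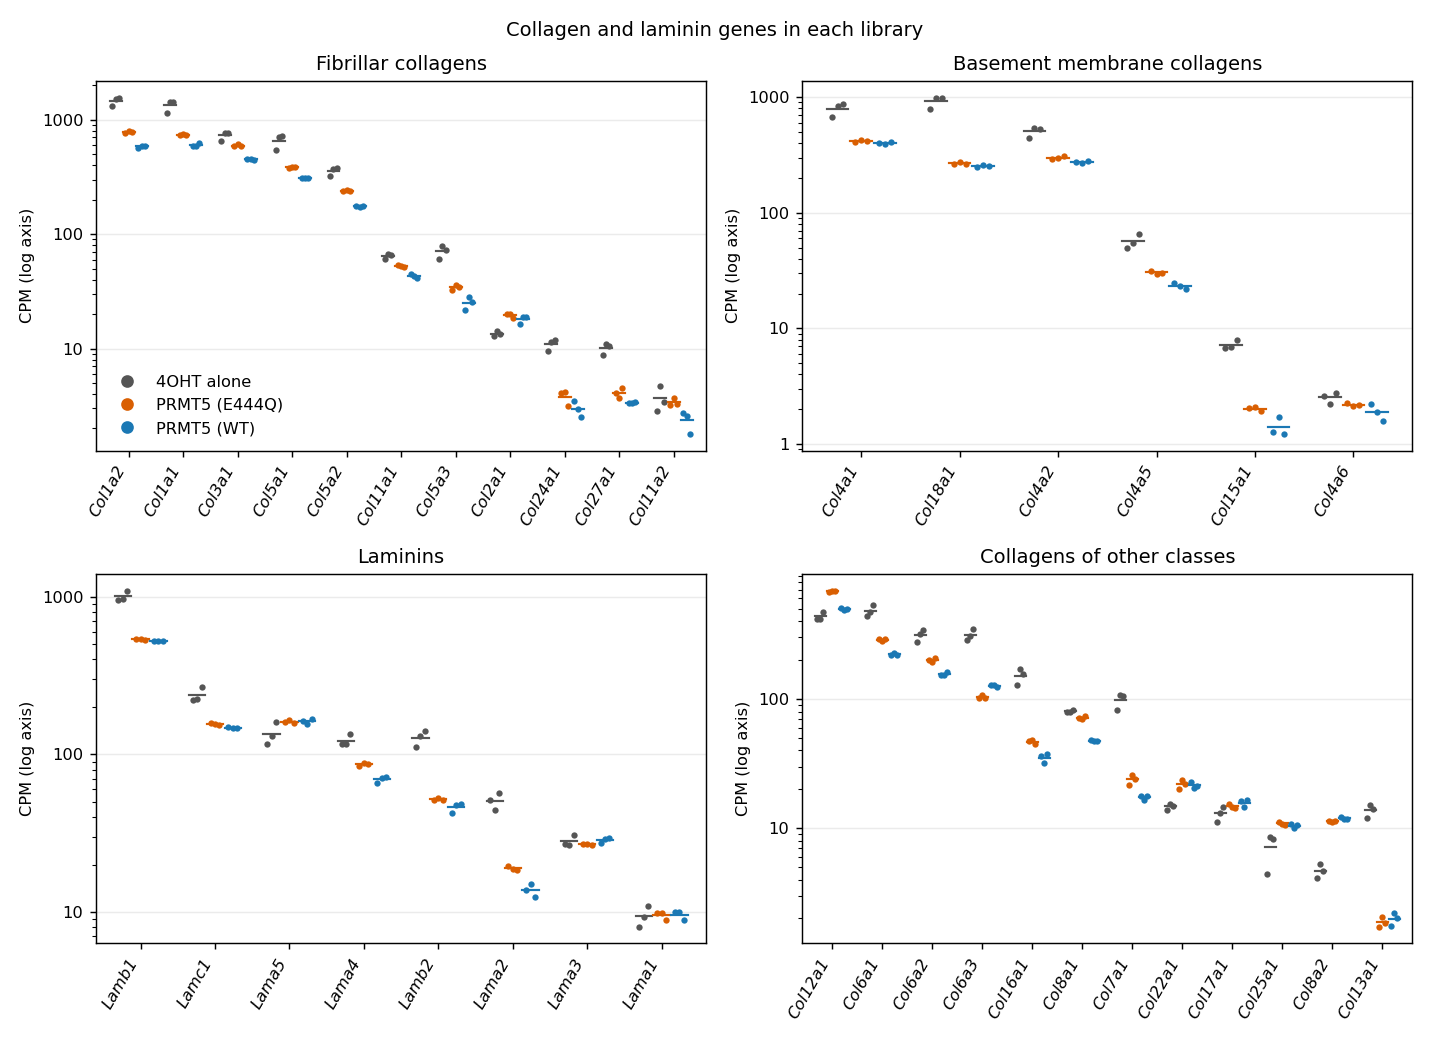
CPM on a log axis of the 37 collagen and laminin genes given by library, ordered by mean CPM within each class. Each point is 1 library and each line the mean of 3 libraries of a group. Grey points (4OHT alone) stand highest for most genes, with the orange PRMT5 (E444Q) points between them and the blue PRMT5 (WT) points for most fibrillar collagens, while Col2a1, Col12a1, Col22a1 and Col8a2 are lowest with 4OHT alone.

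The region before the start of Col3a1 is shown because this chain fell least of the fibrillar chains above 100 CPM, together with those of Col13a1, which fell most among the members given by library, of Col28a1, which rose most, and of Col8a1, which had the largest difference between the constructs of the members above 5 CPM. Each is the 250 bases before the RefSeq transcript start in GRCm38.p6, 5′ to 3′ on the strand of the gene, in lower case. Capitals mark TATAAA, the core of the TATA box, and GGGCGG, the GC box, wherever they occur on either strand. On the other strand the GC box reads as CCGCCC.
Col3a1 (chr1:45311288-45311537, + strand): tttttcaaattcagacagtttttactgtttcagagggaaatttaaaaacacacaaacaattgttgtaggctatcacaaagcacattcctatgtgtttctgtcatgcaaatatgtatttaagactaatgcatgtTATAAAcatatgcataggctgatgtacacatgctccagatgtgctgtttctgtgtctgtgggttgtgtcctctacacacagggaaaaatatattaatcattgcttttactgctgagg
Col13a1 (chr10:61979109-61979358, - strand): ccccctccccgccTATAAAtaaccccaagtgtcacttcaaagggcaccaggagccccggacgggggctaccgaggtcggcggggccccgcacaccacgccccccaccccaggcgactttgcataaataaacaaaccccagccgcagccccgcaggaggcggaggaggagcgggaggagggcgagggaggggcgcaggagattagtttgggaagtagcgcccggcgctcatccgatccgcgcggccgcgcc
Col28a1 (chr6:8192618-8192867, - strand): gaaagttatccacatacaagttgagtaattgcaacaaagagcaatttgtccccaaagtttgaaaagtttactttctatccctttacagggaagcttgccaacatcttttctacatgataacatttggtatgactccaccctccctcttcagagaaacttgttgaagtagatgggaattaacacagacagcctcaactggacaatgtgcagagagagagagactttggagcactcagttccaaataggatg
Col8a1 (chr16:57754738-57754987, - strand): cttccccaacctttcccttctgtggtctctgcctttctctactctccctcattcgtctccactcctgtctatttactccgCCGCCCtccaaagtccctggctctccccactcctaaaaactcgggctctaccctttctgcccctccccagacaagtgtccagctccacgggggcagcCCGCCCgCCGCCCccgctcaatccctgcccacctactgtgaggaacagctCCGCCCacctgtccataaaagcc

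Col3a1 and Col13a1 held 1 TATAAA each and no GGGCGG, Col8a1 held 4 GGGCGG, and Col28a1 held none of these motifs. RefSeq windows were found for 40 of the 55 members (44 windows), of which 54.5% held GGGCGG, 11.4% TATAAA and 31.8% CCAAT on either strand within 250 bases, beside 32.7%, 12.4% and 33.8% of all 32851 windows. The letters of a motif in a window are a description and do not show a bound site. Members without a window included Col1a1, Col2a1, Col5a2, Col9a3, Col12a1, Col14a1, Col22a1, Col26a1, Col4a3, Lama1, Lama3, Lama4, Lamc1 and Lamc3.

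Most basement membrane collagens fell with both constructs, and most differences between the constructs were small and did not pass the test. Of the 8 chains, 5 were lower with each construct than with 4OHT alone, 0 were higher (by edgeR, also without adjustment, and by DESeq2), and 1 (Col4a5) was higher with E444Q than with WT. That is 62.5% lower with each construct, where 26.5% and 27.9% of all genes were, and 12.5% higher between the constructs, where 2.12% of all genes were. The E444Q libraries lay entirely above those of WT for 5 of the 8 chains and entirely below for 0, where 25.8% of all genes tested did not overlap. The median log2 fold changes were -0.91 and -0.96 against 4OHT alone and 0.10 between the constructs, beside 0.043, 0.018 and 0.0080 for all genes tested. Col4a1 and Col4a2 encode the chains of the common type IV network. They lie head to head on chromosome 8 (GRCm38), Col4a1 from 11198423 to 11312826 on the minus strand and Col4a2 from 11312805 to 11449287 on the plus strand, so that their annotated first exons share 22 bases, printed here on the plus strand.
Col4a1 and Col4a2 (chr8:11312805-11312826): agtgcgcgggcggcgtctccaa

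Col4a1 was at 672, 832 and 875 CPM with 4OHT alone, 412, 428 and 415 with E444Q and 398, 393 and 411 with WT. Col4a2 was at 441, 539.6 and 534 CPM with 4OHT alone, 289, 299 and 307 with E444Q and 276, 272 and 282 with WT. The construct libraries all lay below the 4OHT libraries, with Col4a1 1.9-fold lower with E444Q than with 4OHT alone (adjusted p = 1.63e-07) and 1.98-fold lower with WT (adjusted p = 7.58e-08), and Col4a2 1.69-fold and 1.82-fold lower. Between the constructs the differences were log2 0.06 (standard error 0.076) and 0.11 (standard error 0.067), which did not pass (adjusted p = 0.828 and 0.577). Col18a1, the source of endostatin and a proteoglycan of basement membranes, was at 786, 986 and 982 CPM with 4OHT alone, 266, 276 and 266 with E444Q and 247, 258 and 254 with WT. It fell about as strongly with either construct, 3.41-fold with E444Q and 3.63-fold with WT (adjusted p = 1.93e-10 and 9.14e-11), and the difference between them did not pass (log2 0.09, standard error 0.072, adjusted p = 0.696). Its relative Col15a1 was at 6.75, 6.92 and 7.93 CPM with 4OHT alone, 2.06, 2.08 and 1.95 with E444Q and 1.28, 1.7 and 1.22 with WT. This was 3.55-fold lower with E444Q and 5.15-fold lower with WT, and the difference between the constructs (log2 0.54, standard error 0.16) did not pass (adjusted p = 0.096), except by DESeq2 and without the second WT library (adjusted p = 0.0329 and 0.0357).

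Col4a5 and Col4a6, chains of the more specialised type IV networks, also lie head to head, on chromosome X with 1308 bases between their starts. Col4a5 was at 49.2, 55.1 and 65.6 CPM with 4OHT alone, 31.4, 29.6 and 30.4 with E444Q and 24.6, 23.5 and 21.97 with WT. It was 1.86-fold and 2.43-fold lower with E444Q and WT than with 4OHT alone. Between the constructs it was 1.3-fold higher with E444Q (adjusted p = 0.0308), a call lost when any library of a construct was left out and with a block on replicate number. Col4a6 was at 2.62, 2.22 and 2.74 CPM with 4OHT alone, 2.25, 2.12 and 2.18 with E444Q and 2.24, 1.89 and 1.58 with WT, with overlap between all groups. By edgeR none of its comparisons passed (adjusted p = 0.323, 0.0597 and 0.729 for E444Q, WT and between them). Its fall with WT passed under 5 alternative analyses, DESeq2 among them (adjusted p = 0.0416 there). Col4a3 and Col4a4, the remaining chains, had group means of 0.171 to 0.593 CPM and passed in no comparison.

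Laminins split by chain: most beta and gamma chains fell, while the alpha chains went in different directions. Of the 11 genes, 6 were lower and 1 higher with E444Q than with 4OHT alone, 7 were lower and 1 higher with WT, and 2 were higher with E444Q than with WT. Of all genes, 26.5% and 27.9% were lower and 29.5% and 29.9% higher against 4OHT alone, and 2.12% higher between the constructs. The median log2 fold changes were -0.61, -0.82 and 0.05, beside 0.043, 0.018 and 0.0080 for all genes tested. Among the alpha chains, which carry the main cell-binding sites, Lama5, the widespread chain of laminin-511, was at 116, 130.5 and 159 CPM with 4OHT alone, 159, 165 and 158 with E444Q and 162, 157 and 168 with WT. It was 1.19-fold higher with E444Q (adjusted p = 0.024) and 1.2-fold higher with WT (adjusted p = 0.0179). The third 4OHT library lay within the range of the constructs, and both calls were lost without the first or the second 4OHT library. The first call was also lost without the second or the third E444Q library, and the second without the third WT library. Lama4, a chain of vessel and mesenchymal laminins, was at 116, 117 and 134 CPM with 4OHT alone, 84.5, 88.1 and 86.6 with E444Q and 65.8, 70.4 and 71.5 with WT. Lama2, the chain of muscle laminin, was at 51.2, 44.3 and 57.1 CPM with 4OHT alone, 19.6, 18.7 and 18.4 with E444Q and 13.8, 15.1 and 12.4 with WT. Both were highest in every 4OHT library and higher in every E444Q than WT library. Lama4 was 1.41-fold and 1.76-fold lower and Lama2 2.69-fold and 3.7-fold lower with E444Q and WT. Between the constructs they differed 1.25-fold and 1.38-fold (adjusted p = 0.00898 and 0.0129). The call for Lama4 was lost without the second or the third E444Q or the first WT library, and that for Lama2 without the first or the second E444Q or the third WT library.

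Lama1, the early embryonic chain, was at 8.08, 9.3 and 10.9 CPM with 4OHT alone, 9.8, 9.78 and 8.92 with E444Q and 10.003, 9.95 and 8.91 with WT. Lama3, the epithelial chain of laminin-332, was at 26.97, 26.4 and 30.7 CPM with 4OHT alone, 27.04, 27.000 and 26.7 with E444Q and 27.3, 29.1 and 29.5 with WT. Neither passed in any comparison, with log2 fold changes between -0.09 and 0.03 and standard errors up to 0.11, and the sign of several of these values turned with the scaling. The partner chains of the common trimers fell with both constructs. Lamb1 was at 948, 970.0 and 1094 CPM with 4OHT alone, 539, 539 and 533 with E444Q and 522, 525 and 525 with WT. It was 1.87-fold and 1.92-fold lower (adjusted p = 4.77e-09 and 2.72e-09). Lamb2 was at 110.5, 131 and 142 CPM with 4OHT alone, 51.5, 53.1 and 50.97 with E444Q and 42.7, 47.96 and 48.5 with WT. It was 2.46-fold and 2.75-fold lower. Lamc1 was at 221, 224 and 269 CPM with 4OHT alone, 159, 155 and 153 with E444Q and 149, 147 and 146 with WT. It was 1.53-fold and 1.61-fold lower. For these 3 chains the difference between the constructs did not pass (log2 0.04, 0.16 and 0.08, standard errors 0.052, 0.079 and 0.066), although all E444Q libraries lay above those of WT. Lamb3, an epithelial beta chain, was measured below 0.3 CPM in every library and passed in no comparison. Lamc3 had 34, 26 and 40 counts with 4OHT alone, 45, 13 and 11 with E444Q and 0, 0 and 6 with WT. It was called lower with WT than with 4OHT alone (edgeR, adjusted p = 0.00297), at a depth too low for a fold. It would not have passed the filter on low counts without its 4OHT libraries, so this call is no support for a fall. The counts of laminins and of members lower with WT include it. A read pair is taken as about 4 counts, so that these values stand for few pairs.

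Collagens of other classes moved in both directions, with 10 of 25 lower and 6 higher with E444Q, 10 lower and 9 higher with WT, and 7 higher and 1 lower with E444Q than with WT. Against 4OHT alone these are 40% lower and 24% higher, and 40% and 36%, not far from the 26.5% and 29.5%, and 27.9% and 29.9%, of all genes. Between the constructs 28% were higher and 4% lower with E444Q, beside 2.12% and 1.06% of all genes. The median log2 fold changes were -0.01, -0.38 and 0.08, beside 0.043, 0.018 and 0.0080 for all genes tested. The type VI chains form beaded microfibrils around cells. Col6a1 was at 438, 476 and 533 CPM with 4OHT alone, 289, 283 and 292 with E444Q and 220.3, 228 and 219 with WT. Its partner Col6a2 was at 275, 321 and 344 CPM with 4OHT alone, 201, 194 and 206 with E444Q and 152, 152 and 160.4 with WT. Col6a3, the long chain that completes the type VI trimer, was at 287, 307 and 350.4 CPM with 4OHT alone, 103, 107 and 103 with E444Q and 127, 128 and 124 with WT. All were highest with 4OHT alone, but the constructs took opposite places: E444Q lay above WT for Col6a1 and Col6a2 and below it for Col6a3. Col6a1 was 1.3-fold and Col6a2 1.29-fold higher with E444Q than with WT (adjusted p = 0.00313 and 0.00721, the latter lost without the third E444Q library). By contrast, Col6a3 was 1.22-fold lower (log2 -0.28, standard error 0.063, adjusted p = 0.0257). The call for Col6a3 was lost when any library of a construct was left out and without the filter on low counts (adjusted p up to 0.136), with the direction kept under all 17 alternative analyses. Against 4OHT alone, Col6a1 was 1.67-fold and 2.17-fold lower, Col6a2 1.56-fold and 2.02-fold, and Col6a3 3.03-fold and 2.49-fold, for E444Q and WT. Of the type VI chains at low level, Col6a4 and Col6a6 were lower with each construct and Col6a5 passed in no comparison.

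Fibril-associated collagens sit on the surface of fibrils. Col12a1, which is associated with type I fibrils, was at 413, 417 and 476 CPM with 4OHT alone, 672, 691 and 684 with E444Q and 509, 486 and 499 with WT. It was the only member above 100 CPM besides Lama5 that was higher with the constructs. The rise was 1.57-fold with E444Q (adjusted p = 1.92e-07) and 1.14-fold with WT (adjusted p = 0.00743), and it was 1.37-fold higher with E444Q than with WT (adjusted p = 0.000266). The 3 groups did not overlap. Col16a1 was at 129, 169.8 and 157 CPM with 4OHT alone, 47.5, 47.97 and 44.7 with E444Q and 35.9, 32.2 and 37.5 with WT. It was 3.25-fold and 4.31-fold lower, and 1.33-fold higher with E444Q than with WT (adjusted p = 0.0195, lost without the first or the second library of either construct). Col22a1, a collagen of tissue junctions, was at 13.8, 15.5 and 14.97 CPM with 4OHT alone, 19.96, 23.6 and 22.1 with E444Q and 22.9, 20.4 and 21.3 with WT. It was 1.49-fold and 1.46-fold higher with the constructs, which overlapped with each other. At lower level, Col9a3 was higher with each construct and Col9a2 with WT, while Col14a1, Col20a1, Col9a1 and Col19a1 passed in no comparison. Col9a1 and Col19a1 averaged 0.115 and 0.0822 CPM, too low to show whether they changed.

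Network-forming type VIII collagens, found beneath endothelia, parted. Col8a1 was at 78.8, 78.8 and 82.9 CPM with 4OHT alone, 71.6, 69.5 and 73.3 with E444Q and 47.9, 47.3 and 47.4 with WT. The E444Q libraries came close to those of 4OHT alone and WT lay well below. It was 1.5-fold higher with E444Q than with WT (log2 0.59, standard error 0.047, adjusted p = 1.11e-05), 1.12-fold lower with E444Q than with 4OHT alone (adjusted p = 0.00811) and 1.69-fold lower with WT (adjusted p = 9.23e-09). The second of these calls was lost without the filter on low counts and with unscaled library totals. Col8a2 was at 4.12, 5.26 and 4.67 CPM with 4OHT alone, 11.4, 11.2 and 11.3 with E444Q and 12.1, 11.8 and 11.9 with WT. It was 2.41-fold and 2.55-fold higher with the constructs (adjusted p = 1.01e-07 and 5.13e-08). Col10a1, of hypertrophic cartilage, was below 0.3 CPM in every library and passed in no comparison.

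Among the transmembrane collagens, Col13a1 was at 11.9, 15.2 and 14.1 CPM with 4OHT alone, 1.73, 2.06 and 1.85 with E444Q and 1.73, 2.2 and 2.02 with WT. It was 7.3-fold lower with E444Q (adjusted p = 7.07e-10) and 6.91-fold lower with WT (adjusted p = 9.13e-10). These were the largest falls among the members given by library, and the constructs overlapped. Col17a1, of hemidesmosomes, was at 11.3, 13.1 and 14.7 CPM with 4OHT alone, 15.5, 14.6 and 14.4 with E444Q and 16.1, 14.6 and 16.7 with WT. By edgeR with all libraries, only its difference between WT and 4OHT alone passed (1.21-fold higher, adjusted p = 0.0275), with overlapping libraries. The call was lost without the first or the second 4OHT library, the second or the third E444Q library, or the first or the third WT library, and with only the 6 libraries compared. Without the third 4OHT library, or with unscaled library totals, the E444Q difference passed too (adjusted p = 0.0287 and 0.0146). Col25a1 was at 4.39, 8.6 and 8.29 CPM with 4OHT alone, 11.2, 10.8 and 10.7 with E444Q and 10.8, 10.1 and 10.5 with WT. It was 1.53-fold and 1.47-fold higher with the constructs (adjusted p = 0.0104 and 0.0185). The first 4OHT library was far below its group, and the second of these calls was lost without the third WT library. Col23a1 was lower with each construct. Col7a1, which anchors epithelial basement membranes, was at 82.3, 108 and 106 CPM with 4OHT alone, 21.6, 25.9 and 24.1 with E444Q and 17.6, 16.4 and 17.8 with WT. It was 4.13-fold and 5.7-fold lower, and 1.38-fold higher with E444Q than with WT (adjusted p = 0.0163, lost without the second or the third E444Q library or any WT library). Col28a1, a little-studied collagen, was at 0.435, 0.753 and 0.781 CPM with 4OHT alone, 5.01, 4.69 and 4.09 with E444Q and 2.21, 2.74 and 2.05 with WT. It had the largest rise of any member, 6.96-fold with E444Q (adjusted p = 1.07e-07) and 3.53-fold with WT (adjusted p = 7.21e-06), and a 1.97-fold difference between the constructs (adjusted p = 0.0141) that was lost without the first or the second E444Q library or the first or the third WT library. Col26a1 was higher with WT than with 4OHT alone.

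Per kilobase of merged exons, Col1a1 was at 204 CPM per kb with 4OHT alone, 113 with E444Q and 91.2 with WT. Col18a1 was at 131 CPM per kb with 4OHT alone and at 38.4 and 36.04 with the constructs. The balance between chains was followed as the ratio of CPM per kb in 12 pairs, chosen with the counts known. Exact permutation tests (two-sided) of 3 against 3 libraries cannot go below p = 0.1, and adjusted over the 36 tests none was under 0.116, so these ratios are given by whether their libraries overlap. The ratio of Col6a3 to Col6a1 was 0.239 ± 0.00253 (SD, n = 3) with 4OHT alone, 0.132 ± 0.00519 (SD, n = 3) with E444Q and 0.208 ± 0.0031 (SD, n = 3) with WT, with no overlap between groups. Col6a1 to Col6a2 was 2.93 ± 0.106, 2.74 ± 0.0356 and 2.73 ± 0.125 in the same order, and the constructs overlapped. The type VI chains thus differed in how Col6a3 moved relative to Col6a1. Col12a1 to Col1a1 was 0.141 ± 0.0147, 0.397 ± 0.00312 and 0.359 ± 0.0147, and Col3a1 to Col1a1 was 0.366 ± 0.0126, 0.537 ± 0.00856 and 0.505 ± 0.0209, both higher in every construct library than in every 4OHT library. Col18a1 to Col4a1 was 1.23 ± 0.0354, 0.686 ± 0.00207 and 0.672 ± 0.0238, and Col4a1 to Col4a2 was 1.39 ± 0.0554, 1.24 ± 0.0395 and 1.28 ± 0.00664, both lower with the constructs. Lama5 to Lama4 was 1.17 ± 0.0981, 1.97 ± 0.0307 and 2.49 ± 0.128, and Lamb1 to Lamc1 was 3.53 ± 0.12, 2.88 ± 0.0436 and 2.96 ± 0.0454. Col1a1 to Col1a2 was 1.66 to 1.8 with 4OHT alone, 1.77 to 1.82 with E444Q and 1.89 to 1.99 with WT. Its WT libraries lay above all others, while 4OHT alone and E444Q overlapped. The absolute ratios depend on the length used (with the longest transcript Col1a1 to Col1a2 was 0.828, 0.856 and 0.923, so that Col1a2 was then the higher in each group), while the fold by which a ratio differs between groups does not.

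**Figure D4:**
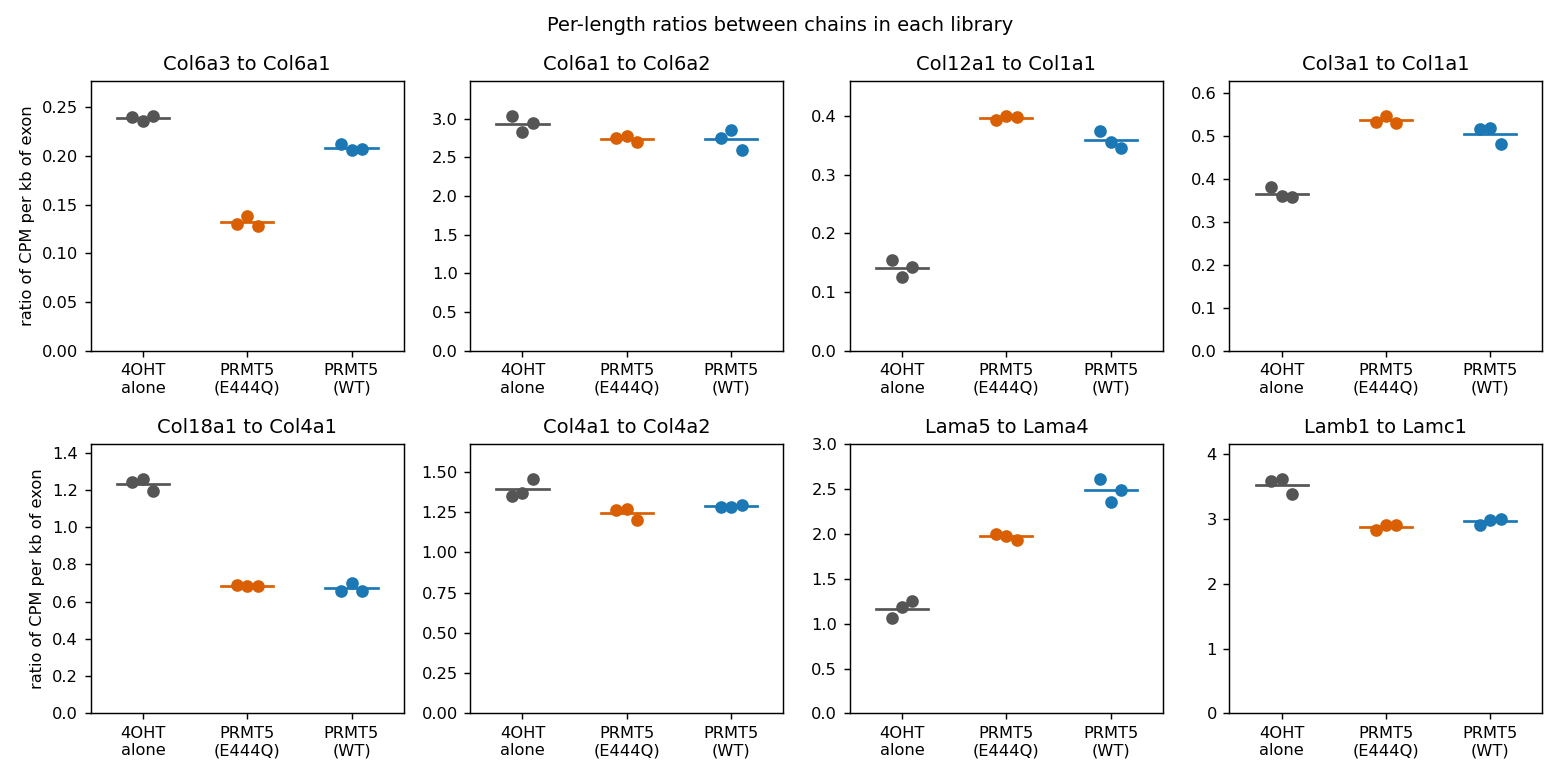
Ratio of CPM per kb of exon between chains in each library (points; lines are means of 3 libraries), for 8 of the 12 pairs, with axes from 0. Col6a3 to Col6a1 is lowest with PRMT5 (E444Q), Col12a1 to Col1a1 and Lama5 to Lama4 are lowest with 4OHT alone, and Col18a1 to Col4a1 is highest with 4OHT alone.

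Genes that make, assemble or bind collagens and laminins were followed by list. Of 17 genes for procollagen modification and folding, 10 were lower and 4 higher with E444Q than with 4OHT alone, 11 lower and 2 higher with WT, and 5 higher between the constructs. As shares, 58.8% and 64.7% were lower, 23.5% and 11.8% higher, and 29.4% higher between the constructs. Of all genes tested, 26.5% and 27.9% were lower and 29.5% and 29.9% higher against 4OHT alone, and 2.12% were higher between the constructs. P4hb, the beta subunit of prolyl 4-hydroxylase, passed in no comparison and averaged 938 ± 60.8 CPM, 937 ± 12.2 CPM and 929 ± 7.83 CPM with 4OHT alone, E444Q and WT (SD, n = 3, here and for the genes below). Serpinh1, the collagen chaperone HSP47, was at 454 ± 23.6 CPM, 270.0 ± 0.932 CPM and 207 ± 4.69 CPM in the same order. It was lower with each construct (log2 -0.75 and -1.13) and higher with E444Q than with WT (log2 0.38, adjusted p = 0.000381). Of 6 genes for procollagen secretion and transcription found in the table, of 8 listed, 5 fell and 1 rose with each construct. That is 83.3% lower and 16.7% higher with each construct, where 26.5% and 27.9% of all genes were lower and 29.5% and 29.9% higher. Between the constructs 0 passed by edgeR or DESeq2 with adjustment and 1 had an unadjusted p under 0.05. Sec24d, of the secretory coat, was lower (log2 -0.88 and -1.003), and Hsp90b1, an endoplasmic reticulum chaperone, was higher by 0.15 and 0.12 on the log2 scale. The call for Hsp90b1 with WT was lost in most alternative analyses.

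Of 13 genes for procollagen processing and cross-linking, 10 were lower with E444Q, 11 lower with WT and 6 higher with E444Q than with WT. As shares these are 76.9%, 84.6% and 46.2%, beside 26.5%, 27.9% and 2.12% of all genes tested. Lox, the lysyl oxidase, was at 1319.9, 1274 and 1283 CPM, 1353, 1278 and 1378 CPM and 969, 924 and 955 CPM with 4OHT alone, E444Q and WT. It was lower with WT than with 4OHT alone (log2 -0.45) and higher with E444Q than with WT (log2 0.49, adjusted p = 2.3e-05). Its difference between E444Q and 4OHT alone did not pass (log2 0.05, adjusted p = 0.369). Bmp1, the procollagen C-proteinase, was lower with each construct (log2 -1.77 and -2.21) and higher with E444Q than with WT (log2 0.44, adjusted p = 0.000863). Of 12 fibril-binding proteoglycans and glycoproteins, 9 were lower and 2 higher with E444Q, 10 lower with WT, and 10 higher with E444Q than with WT. As shares these are 75%, 16.7%, 83.3% and 83.3%, beside 26.5%, 29.5%, 27.9% and 2.12% of all genes tested. Fn1, fibronectin, was at 4955 ± 672 CPM, 1821 ± 23.9 CPM and 1488 ± 20.3 CPM, and Thbs1, thrombospondin 1, at 2455 ± 268 CPM, 708 ± 9.69 CPM and 514 ± 2.7 CPM. Between the constructs these were higher with E444Q by 0.29 and 0.46 on the log2 scale (adjusted p = 0.0401 and 0.000648), and the call for Fn1 was lost without any single library of a construct and with another scaling (DESeq2 size factors).

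Of 12 basement membrane partners, 5 were lower and 4 higher with each construct, or 41.7% and 33.3%, not far from the shares of all genes given above. Between the constructs 2 were higher with E444Q than with WT, or 16.7%, beside 2.12% of all genes. The best expressed, Hspg2 (perlecan) and Nid1 (nidogen 1), were lower with each construct (log2 -1.77 and -1.90 for Hspg2, log2 -1.62 and -1.86 for Nid1). Nid1 was higher with E444Q than with WT by 0.25 on the log2 scale (adjusted p = 0.0405), a call lost without any single library of a construct and with DESeq2 size factors. Of 8 collagen receptors, 5 were lower and 1 higher with E444Q, 6 lower with WT, and 2 higher with E444Q than with WT. As shares these are 62.5%, 12.5%, 75% and 25%, beside 26.5%, 29.5%, 27.9% and 2.12% of all genes tested. Itgb1, the shared integrin beta 1 chain, was at 1131 ± 39.6 CPM, 514 ± 13.3 CPM and 446 ± 11.7 CPM, and Mrc2, an endocytic collagen receptor, at 381 ± 38.5 CPM, 122 ± 3.35 CPM and 103 ± 1.73 CPM, both lower with each construct. Of 7 laminin receptors, 1 was lower and 2 higher with E444Q, 1 lower and 3 higher with WT, or 14.3% lower and 28.6% and 42.9% higher, beside 26.5% and 27.9% lower and 29.5% and 29.9% higher of all genes. Between the constructs 0 passed by edgeR with adjustment, with 1 lower at an unadjusted p under 0.05 and 1 by DESeq2. Rpsa, the laminin-binding ribosomal protein, was at 845 ± 20.2 CPM, 919 ± 20.5 CPM and 929.6 ± 16.8 CPM, and Dag1, dystroglycan, at 386 ± 39.3 CPM, 439.9 ± 3.5 CPM and 464 ± 11.3 CPM. Both were slightly higher with each construct than with 4OHT alone (log2 0.12 and 0.14 for Rpsa, 0.19 and 0.27 for Dag1), and each lost its E444Q call in some alternative analyses, as did Rpsa its WT call with only the 6 libraries compared.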

How the data were processed

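The authors deposited 1 table of raw counts for 53801 genes in 9 RNA-seq libraries. For these, reads had been trimmed (Trimmomatic 0.39 after BBmap), placed on GRCm38 by HISAT2 2.2.1 and quantified by StringTie 2.2.1, with versions taken from the submitters' processing notes. Strand, the handling of multiply mapped reads and how the StringTie output became whole counts are not given in the sources used here. The count 4 was 1.35 to 1.84 times as frequent as the mean frequency of 3 and 5, so a read pair is taken to be worth about 4 counts.

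All 9 libraries (3 a group) were fitted together with edgeR 4.0.16 in R 4.3.3: filterByExpr (minimum count 10, minimum total 15), TMM scaling, quasi-likelihood tests between groups and Benjamini-Hochberg adjustment over the 22452 genes tested, with a threshold of 0.05. Every adjusted p comes from this fit unless another analysis or test is named beside it, and every standard error is on the log2 scale. The fit was tested on simulated data before use. Means and SDs are of CPM scaled with the same factors, and values per kb use the merged exons of GENCODE vM21 (GRCm38), also the source of the coordinates. Promoters are from RefSeq (GRCm38.p6). At exons, 16 members share bases with another gene, at most 6.27% of the exon bases of 1 member, where reads cannot be told apart without strand. No replicate pair was alike within sampling noise.

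Values by library are given for fibrillar collagens, basement membrane collagens and laminins whose mean was 1 CPM or more, and for other collagens from 5 CPM. Of the remaining members, counts and those called between the constructs are given. The 2 best expressed genes of each pathway list are named, and markers are given as sums. A gene that meets these limits is not reported here by name, but counts over the members include it. The members, the lists, the chain pairs and the genes whose promoters are printed were chosen with earlier results of these data known. Alternatives were DESeq2 1.42.0 (size factors, and its Wald test), no filter, at least 1 CPM in 3 libraries, counts divided by 4, only the 6 libraries compared, a block on replicate number, at least 1.5-fold, each library left out in turn, the longest transcript as the length, and, chosen after seeing the data, library totals without TMM.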

Additional observations from a re-analysis of the deposited data

How the results depend on the processing

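The counts of members called lower against 4OHT alone, and of those called higher with E444Q than with 4OHT alone, stayed within 1.5 times the reported counts under each alternative except the limit on size. With calls limited to at least 1.5-fold, 2 members were higher and 0 lower between the constructs, and 5 with E444Q and 2 with WT were higher than 4OHT alone. Without the filter, 0 members were lower between the constructs. Leaving out single libraries gave 8 to 17 members higher and 0 to 1 lower between the constructs, the 0 without any 1 construct library, and 7 to 11 higher with WT than with 4OHT alone, the 7 without the third WT library. Of the 17 members called between the constructs, all 17 kept their direction and 6 (Col12a1, Col1a2, Col3a1, Col5a2, Col6a1 and Col8a1) their call under 17 alternatives. Of the members with values by library above, and Col28a1, 33 were called for E444Q against 4OHT alone and 31 kept their call, as did 31 of 35 for WT. The remaining called members were not followed one by one. Over all genes, 712 were called between the constructs, and 1140 by the DESeq2 Wald test, 1565 with only the 6 libraries compared and 400 to 1099 with single libraries left out.

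The differences whose sign turned were near 0 and not called at the reported setting. Library totals without TMM moved the median log2 fold change of all genes to 0.156 for E444Q and 0.106 for WT against 4OHT alone. For E444Q against 4OHT alone, Lama1 was at a log2 fold change of -0.019 with DESeq2 size factors, -0.020 by the Wald test, -0.023 with at least 1 CPM and -0.021 with counts divided by 4. For WT against 4OHT alone, Lama1 was at -0.016 and Lama3 at -0.013 with at least 1 CPM, and at -0.016 and -0.0044 with counts divided by 4. Without the filter, Lama1 was at 0.024, Lama5 at 0.025 and Rpsa at 0.023 between the constructs, Lama3 at 0.0032 and P4hb at 0.061 with E444Q, and P4hb at 0.0085 with WT. Without TMM these were 0.0078, 0.010, 0.0073, 0.054, 0.11 and 0.074 in the same order, and the difference of P4hb with E444Q was then called (edgeR, adjusted p = 0.0396). With only the 6 libraries, P4hb was at 0.0033 with E444Q. Leaving out single libraries gave, between the constructs, -0.068 to 0.028 for Lama1, -0.041 to 0.014 for Lama5, -0.031 to 0.089 for Col22a1 and -0.030 to 0.0019 for Rpsa. It gave, with E444Q against 4OHT alone, -0.27 to 0.12 for Col11a2, -0.10 to 0.12 for Lama1, -0.099 to 0.0060 for Lama3 and -0.035 to 0.047 for P4hb, and with WT -0.088 to 0.13 for Lama1, -0.012 to 0.092 for Lama3 and -0.051 to 0.030 for P4hb. The cause of these changes was not tested.

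The groups share replicate numbers, but the deviations of same-numbered libraries correlated at 0.022 to 0.13 between the constructs, -0.022 to 0.095 between E444Q and 4OHT alone and 0.063 to 0.13 between WT and 4OHT alone, so the numbers were not taken as pairs. With the replicate block, 15 members were higher (Col4a5 lost its call) and 1 lower between the constructs, 8 higher and 30 lower with E444Q, and 11 higher and 32 lower with WT than with 4OHT alone. Depth limits Lamc3, Lamb3, Col10a1, Col9a1, Col19a1, Col4a3 and Col4a4, which lie near the level of few read pairs.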

Other observations

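Some members lie near each other in GRCm38, and these did not always pass the same tests. Col4a3 and Col4a4 lie head to head on chromosome 1 with 71 bases between them, and neither passed the test in any comparison. Col6a4, Col6a5 and Col6a6 lie in a row on chromosome 9 with 27.9 kb and 28.8 kb between them, and of these Col6a4 and Col6a6 were lower with each construct while Col6a5 passed in no comparison. Col6a5 averaged 0.577 CPM, with log2 fold changes of -0.27 for E444Q and for WT (standard errors 0.42 and 0.43). These are too imprecise to show that it moved unlike its neighbours. Col6a1 and Col6a2 lie on the same strand of chromosome 10 with 85.2 kb between them.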
